A study of Sus scrofa with 9 samples.

Results

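Kupffer cell and macrophage markers were followed in pig liver as a set of 35 gene symbols fixed by name, of which 33 were measured among the 29837 symbols of the deposited count table. The set spans scavenger and pattern-recognition receptors, markers of resident Kupffer cells, pan-macrophage genes, integrins and signalling adaptors, and markers of costimulation, lipid-associated macrophages and monocytes. CYBB and the symbol NR1H3L were not analysed here. Of the 33 markers, 31 passed the filter on low counts and were tested, while CLEC7A and TREM2 lay below it. Livers came from 4 MIDY pigs and from 5 WT (wild type) pigs, every animal a female aged 2 years. MIDY is a form of diabetes of youth that a mutant INS gene induces, and its pigs carry an insulin transgene with the C94Y mutation. Diabetic animals received short-acting and long-acting insulin by day, per the labels, so MIDY livers differ from WT livers in both genotype and insulin treatment, and these cannot be told apart. The sources used here do not give the promoter of the transgene or the number of founder lines. INS itself was at 0 to 2 counts in each MIDY library and 0 to 1 in each WT library, which is too few to check the genotype labels in liver.

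Kupffer cells are the resident macrophages of the liver. They sit in the sinusoids, take up bacteria, debris and aged red cells from portal blood, and recycle the iron of haemoglobin. Their survival depends on signals through the CSF1 receptor and on the transcription factor PU.1, encoded by SPI1. Monocytes that enter from the blood, marked in mouse and human by CCR2, can take on a macrophage fate beside the resident cells.

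Total counts were 14819335 to 18708976 in MIDY libraries and 14115415 to 19533463 in WT libraries, and the 33 markers took 0.193 to 0.206% of the counts in MIDY libraries and 0.177 to 0.198% in WT libraries. Levels are given as CPM, counts per 1e6 counts, on the library size scaled with TMM factors, and are read within a gene only, since transcript lengths were not used. The labelled tissue showed its defining transcripts: 10 hepatocyte genes, ALB and TTR among them, summed to 154011 to 184506 CPM in MIDY and 127805 to 184456 CPM in WT libraries. Each library is from 1 animal, and no batch is given in the labels.

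None of the 31 tested markers was called different between MIDY and WT liver (edgeR quasi-likelihood test, Benjamini-Hochberg adjusted p below 0.05 over 14100 genes; 0 of 31, against 1.17% of all genes tested, 0.816% higher and 0.355% lower). At an unadjusted p below 0.05 there were 7 markers, or 22.6%, against 16.1% of all genes. MARCO, 1 of 31, was higher in MIDY liver (8.15% of all genes), and CD163, LAPTM5, LYZ, FCER1G, TYROBP and GPNMB, 6 of 31, were lower (8.0%). Fitted values were below 0 for 24 of 31 markers, or 77.4%, against 50.7% of all genes, and the median log2 fold change was -0.21, against -0.0046 over all genes. MIDY and WT levels were fully separate for 3 markers, or 9.68%, against 6.35% of all genes, with MARCO above WT (3.72% of all genes) and CD163 and LAPTM5 below (2.63%). DESeq2 on the same counts called MARCO higher (adjusted p = 0.0256) and LYZ lower (adjusted p = 0.0285), while limma voom called 0 markers and had 10 at an unadjusted p below 0.05. The edgeR count of 7 became 11 without MIDY replicate 2, where SPI1, ADGRE1, CTSS and CCR2 joined it. In bulk liver, fewer cells of a type and less of a transcript per cell cannot be told apart.

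**Figure D1:**
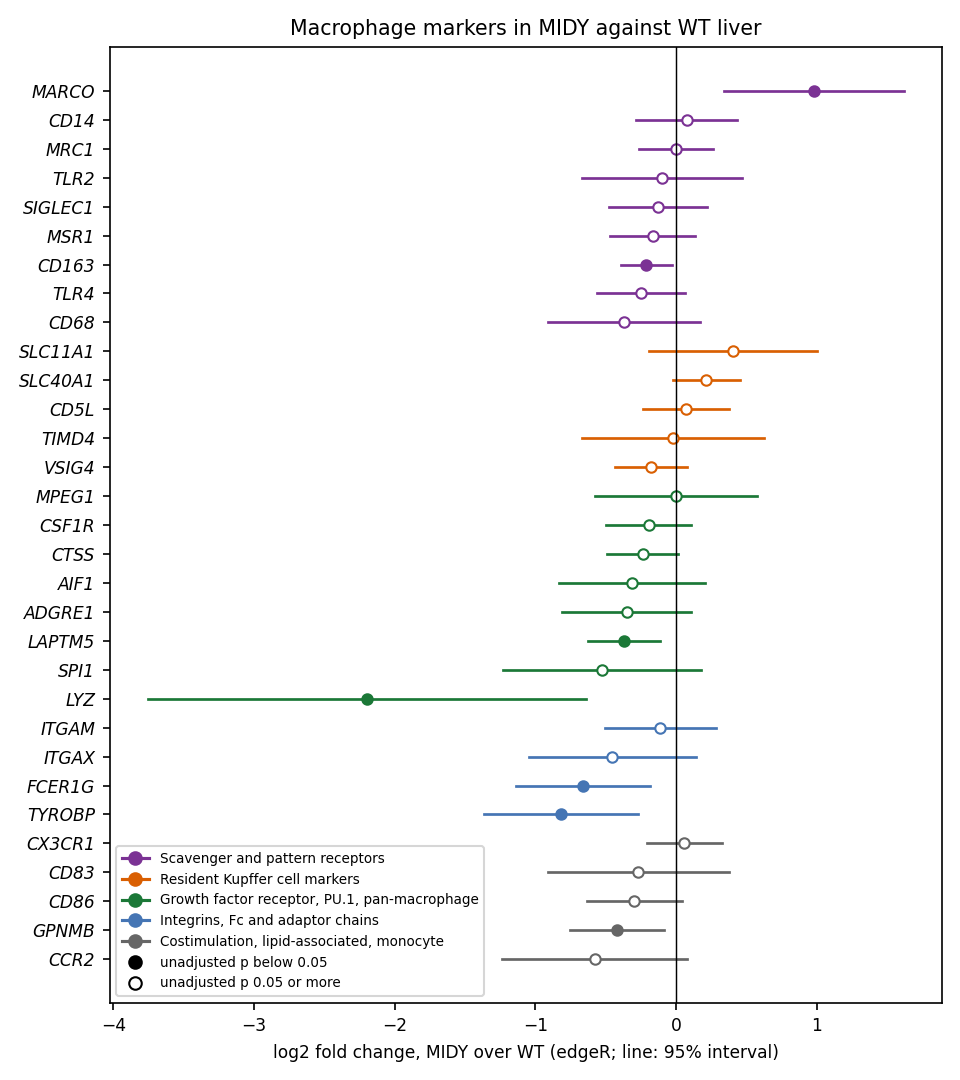
Log2 fold change of the 31 tested markers, MIDY over WT, ordered by role, with 95% intervals from edgeR as lines. Filled points had an unadjusted p below 0.05. MARCO stands alone to the right at 0.98, LYZ has the widest interval, from -3.76 to -0.64, and the resident Kupffer cell markers lie on both sides of 0.

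Among the scavenger receptors, MARCO and CD163 lay in opposite directions. MARCO, a class A scavenger receptor that binds bacteria and particles (chromosome 15, 24502935 to 24541286, on Sscrofa11.1), had 18.2, 19.1, 23.9 and 18.0 CPM in the MIDY libraries, against 17.1, 5.55, 8.63, 6.49 and 12.7 CPM in the WT libraries. The lowest MIDY library still exceeded the highest WT library, although WT replicate 1 came within 1 CPM of the lowest MIDY library. Its fitted level was 1.97 times that of WT (log2 fold change 0.98 ± 0.29 SE; edgeR adjusted p = 0.138). Without WT replicate 1, the highest WT library, MARCO was called higher at 1.24 ± 0.23 log2 (edgeR adjusted p = 0.0304), and over the 18 alternatives run its adjusted p ranged from 0.0256 with DESeq2 to 0.304 without MIDY replicate 3. The model of an uncharacterised gene, LOC100516467, overlaps MARCO and held 2 counts in the MIDY libraries and 0 in the WT libraries. These counts do not show how reads in the overlap were assigned, so its effect on the MARCO value is not known.

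CD163, the receptor that clears haemoglobin bound to haptoglobin (chromosome 5, 63300200 to 63334497), was the least variable marker within both groups. It had 74.2, 75.6, 71.4 and 72.4 CPM in the MIDY libraries, against 80.5, 86.1, 89.5, 82.3 and 86.6 CPM in the WT libraries. Every MIDY library lay below every WT library, with coefficients of variation of 2.55% in MIDY and 4.21% in WT. The difference was small, a fitted change of -13.6% (log2 fold change -0.21 ± 0.08 SE; unadjusted p = 0.0257, edgeR adjusted p = 0.239). With 1 of the 9 libraries left out, its unadjusted edgeR p stayed below 0.05 in 7 fits and reached 0.0668 at most. It was not below 0.05 without MIDY replicate 3, without WT replicate 5, with scaling by total counts alone or with no low-count filter.

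The other receptors of this group passed neither threshold in the main edgeR fit, and the levels of each overlapped between MIDY and WT. TLR4 had an unadjusted p below 0.05 with limma voom and with edgeR without MIDY replicate 1. MRC1, the mannose receptor, which liver sinusoidal endothelial cells also carry, averaged 248 ± 14.7 CPM in MIDY and 248 ± 38.4 CPM in WT liver (SD, n = 4 and 5), and the 95% interval of its log2 fold change ran from -0.26 to 0.26. CD14, the coreceptor for bacterial lipopolysaccharide, averaged 245 ± 62.7 CPM in MIDY and 233 ± 35.9 CPM in WT liver (SD, n = 4 and 5), with MIDY replicate 1 highest of all libraries at 331 CPM and MIDY replicate 4 lowest at 186 CPM. CD68, a glycoprotein of the macrophage endosome and lysosome, spread widely, at 23.3 to 34.4 CPM in MIDY and 26.4 to 58.7 CPM in WT libraries. MSR1, which takes up modified lipoproteins, SIGLEC1, which binds sialic acid, and the Toll-like receptors TLR4 and TLR2, for lipopolysaccharide and bacterial lipoproteins, had log2 fold changes of -0.17 ± 0.14, -0.13 ± 0.16, -0.25 ± 0.15 and -0.10 ± 0.26 (SE; edgeR adjusted p from 0.430 to 0.898). CLEC7A, the receptor for fungal beta-glucan, totalled 20 counts in MIDY and 46 in WT libraries and was not tested. It had 0 counts in WT replicate 5.

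**Figure D2:**
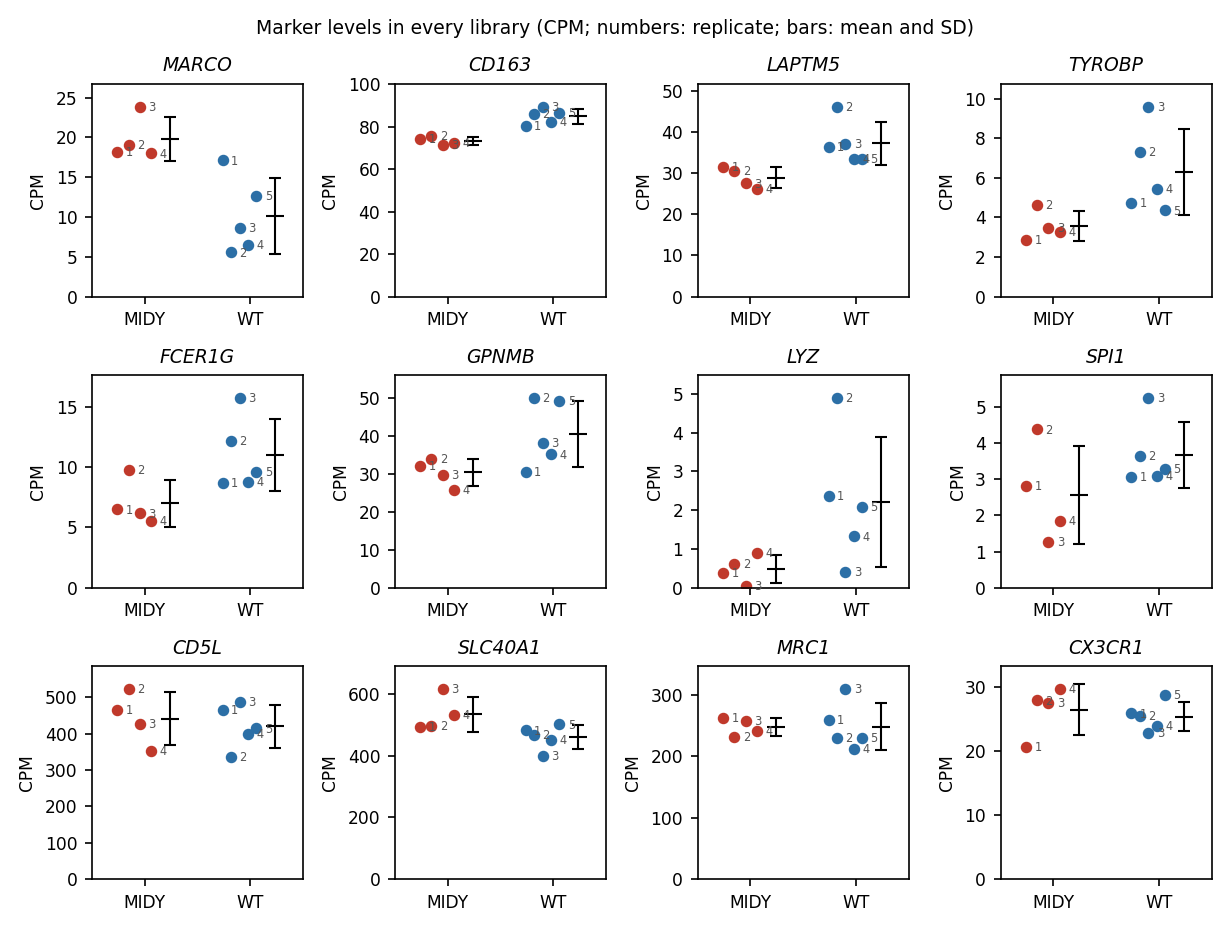
CPM of 12 markers in every library, MIDY in red and WT in blue, with the replicate number beside each point and the mean and SD as bars. MARCO lies higher in all 4 MIDY libraries, CD163 and LAPTM5 lower, and CD5L, MRC1 and CX3CR1 overlap between the groups.

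Markers of resident Kupffer cells gave no difference past either threshold in the main edgeR fit. Of the 5 measured, 0 were called there and 0 had an unadjusted p below 0.05, against 1.17% and 16.1% of all genes. Fitted values were above 0 for 3 (CD5L, SLC40A1 and SLC11A1) and below for 2 (VSIG4 and TIMD4), and the median log2 fold change was 0.07. Among the alternatives, SLC40A1 had an unadjusted p below 0.05 with limma voom and with edgeR and 1 surrogate variable. VSIG4 had one in edgeR without WT replicate 4. CD5L, a protein that tissue macrophages secrete into plasma (chromosome 4, 92394535 to 92412146), had 466, 523, 427 and 352 CPM in the MIDY libraries and 466, 336, 488, 400 and 415 CPM in the WT libraries. The groups overlapped, and the 95% interval of its log2 fold change was -0.23 to 0.38. VSIG4, the complement receptor by which Kupffer cells hold opsonised bacteria, averaged 27.0 ± 1.49 CPM in MIDY and 30.6 ± 4.30 CPM in WT liver (SD, n = 4 and 5; log2 fold change -0.18 ± 0.12 SE; edgeR adjusted p = 0.486). TIMD4, a phosphatidylserine receptor that marks long-lived resident macrophages in mouse, ranged from 5.72 to 16.03 CPM in MIDY and from 6.998 to 15.5 CPM in WT libraries, so that 1 MIDY animal had the highest and another the lowest level.

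The pair of metal transporters in this group had fitted values above 0. SLC40A1, or ferroportin, exports iron from macrophages and also from hepatocytes (chromosome 15, 94140635 to 94161793). It had 492, 496, 617 and 534 CPM in the MIDY libraries, against 482, 468, 399, 453 and 502 CPM in the WT libraries. Only WT replicate 5 reached into the MIDY range (log2 fold change 0.22 ± 0.11 SE; unadjusted p = 0.0748, edgeR adjusted p = 0.366). SLC11A1, which moves metal ions out of the phagosome, averaged 3.77 ± 0.79 CPM in MIDY and 2.86 ± 1.07 CPM in WT liver (SD, n = 4 and 5; log2 fold change 0.40 ± 0.28 SE; edgeR adjusted p = 0.508).

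The 8 pan-macrophage genes had fitted values below 0 in 7, against 50.7% of all genes, with a median log2 fold change of -0.33. LAPTM5, a lysosomal membrane protein found in leukocytes in general (chromosome 6, 87363911 to 87390371), had 31.5, 30.5, 27.6 and 26.3 CPM in the MIDY libraries, against 36.5, 46.2, 37.1, 33.5 and 33.4 CPM in the WT libraries. All MIDY libraries lay below all WT libraries (log2 fold change -0.37 ± 0.12 SE; unadjusted p = 0.00845, edgeR adjusted p = 0.157). With any 1 of the 9 libraries left out its unadjusted p remained below 0.05. CSF1R, the receptor on which Kupffer cell survival depends (chromosome 2, 151102138 to 151130311), had 44.2, 43.9, 39.6 and 32.7 CPM in the MIDY libraries and 46.0, 53.2, 53.8, 36.4 and 40.1 CPM in the WT libraries. These groups overlapped, and its log2 fold change was -0.20 ± 0.14 (SE; edgeR adjusted p = 0.528).

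SPI1, the gene of PU.1, was measured at a low level, with 2.81, 4.37, 1.26 and 1.84 CPM in the MIDY libraries and 3.06, 3.65, 5.25, 3.09 and 3.28 CPM in the WT libraries. MIDY replicate 2 lay above 4 of the 5 WT libraries and the other 3 MIDY libraries below all of them, and the log2 fold change was -0.53 ± 0.32 (SE; edgeR adjusted p = 0.455). It was -0.90 without MIDY replicate 2, with an unadjusted p below 0.05, and -0.29 without MIDY replicate 3 (edgeR adjusted p = 0.247 and 0.748). LYZ, lysozyme, had the largest fitted difference of the set and the least depth among the 7 markers with an unadjusted p below 0.05. Its raw counts were 6, 9, 1 and 17 in the MIDY libraries, against 34, 98, 6, 21 and 37 in the WT libraries. WT replicate 3 fell within the MIDY range, WT replicate 2 held 98 of the 196 WT counts, and the log2 fold change was -2.20 ± 0.71 (SE; unadjusted p = 0.0100, edgeR adjusted p = 0.168). Over the 18 alternatives the adjusted p of LYZ ranged from 0.0285 to 0.383. Without WT replicates 1 and 2 together it was -1.41 ± 0.69 log2, with an unadjusted p of 0.0687.

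CTSS, a cysteine protease of antigen processing, averaged 72.6 ± 8.90 CPM in MIDY and 85.7 ± 10.1 CPM in WT liver (SD, n = 4 and 5; log2 fold change -0.24 ± 0.12 SE; edgeR adjusted p = 0.337). MPEG1, a pore-forming protein that kills engulfed bacteria, averaged 14.6 ± 3.499 CPM in MIDY and 14.6 ± 5.48 CPM in WT liver (SD, n = 4 and 5). ADGRE1, known in mouse as F4/80, and AIF1, an actin-binding protein, had log2 fold changes of -0.35 ± 0.21 and -0.31 ± 0.24 (SE; edgeR adjusted p = 0.445 and 0.556). The AIF1 value is uncertain because the models of LST1 and NCR3 overlap it. LST1 held 113 counts in the MIDY libraries and 308 in the WT libraries, against 493 and 765 for AIF1.

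The 4 integrin and adaptor genes all had fitted values below 0, against 50.7% of all genes, with a median log2 fold change of -0.56. The 2 adaptors had an unadjusted p below 0.05, 2 of the 4 genes, against 8.0% of all genes lower at that p. FCER1G, the Fc receptor gamma chain, and TYROBP, or DAP12, are short membrane proteins whose ITAM motifs carry the signal of receptors that lack one of their own. TYROBP (chromosome 6, 45309199 to 45312562) had 2.87, 4.65, 3.48 and 3.25 CPM in the MIDY libraries, against 4.73, 7.29, 9.59, 5.42 and 4.35 CPM in the WT libraries. Only WT replicate 5 lay below the highest MIDY library, and the log2 fold change was -0.82 ± 0.25 (SE; unadjusted p = 0.0065, edgeR adjusted p = 0.138). FCER1G (chromosome 4, 89242467 to 89246344) had 6.49, 9.79, 6.16 and 5.51 CPM in the MIDY libraries, against 8.69, 12.2, 15.7, 8.76 and 9.60 CPM in the WT libraries. MIDY replicate 2 was again the highest MIDY library and overlapped 3 WT libraries, while the other 3 MIDY libraries lay below all WT libraries (log2 fold change -0.66 ± 0.22 SE; unadjusted p = 0.0104, edgeR adjusted p = 0.169). In both genes WT replicate 3 was highest, and with any 1 of the 9 libraries left out their unadjusted p was below 0.05 and their adjusted p was 0.104 or more. Both adaptors are also made by NK cells, and FCER1G by mast cells.

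The integrins that lie side by side on chromosome 3, ITGAX (CD11c, 17178725 to 17201388) and ITGAM (CD11b, 17216719 to 17272134), passed neither threshold in the main edgeR fit. ITGAX had an unadjusted p below 0.05 in edgeR without WT replicate 1. ITGAX averaged 1.73 ± 0.32 CPM in MIDY and 2.37 ± 0.71 CPM in WT liver, and ITGAM 4.64 ± 0.74 CPM in MIDY and 5.03 ± 0.86 CPM in WT liver (SD, n = 4 and 5; edgeR adjusted p = 0.445 and 0.816). The model of LOC110259903 overlaps ITGAM and held 43 counts in the MIDY libraries and 55 in the WT libraries, against 317 and 414 for ITGAM.

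In the group of costimulation, lipid-associated and monocyte markers, GPNMB, a glycoprotein of lipid-laden macrophages (chromosome 9, 92037428 to 92071501), had 32.1, 33.9, 29.8 and 25.6 CPM in the MIDY libraries, against 30.5, 49.9, 38.1, 35.1 and 49.1 CPM in the WT libraries. WT replicate 1 lay within the MIDY range and the other 4 WT libraries above it (log2 fold change -0.42 ± 0.15 SE; unadjusted p = 0.0179, edgeR adjusted p = 0.207). Without MIDY replicate 4 the unadjusted edgeR p of GPNMB was 0.0543. TREM2, a lipid receptor that signals through TYROBP, totalled 3 counts in MIDY and 2 in WT libraries, so no difference was detectable at this depth. CD86, a ligand of T cell costimulation, averaged 11.0 ± 1.62 CPM in MIDY and 13.5 ± 2.43 CPM in WT liver (SD, n = 4 and 5; edgeR adjusted p = 0.377), and CD83, a maturation marker of dendritic cells, had a log2 fold change of -0.27 ± 0.30 (SE; edgeR adjusted p = 0.708).

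The chemokine receptors that mark monocyte subsets passed neither threshold in the main edgeR fit. CCR2 had an unadjusted p below 0.05 in edgeR without MIDY replicate 2 and without WT replicate 1. CCR2, by which monocytes follow CCL2 out of the bone marrow, had 0.87, 1.87, 1.32 and 1.101 CPM in the MIDY libraries and 1.32, 2.30, 1.79, 2.58 and 1.58 CPM in the WT libraries (log2 fold change -0.58 ± 0.30 SE; edgeR adjusted p = 0.375). CX3CR1, the fractalkine receptor of patrolling monocytes and of some tissue macrophages, averaged 26.5 ± 4.00 CPM in MIDY and 25.4 ± 2.27 CPM in WT liver (SD, n = 4 and 5), and the 95% interval of its log2 fold change ran from -0.21 to 0.32. For 14 of the 31 tested markers, CD163, MRC1, CD14, VSIG4, CD5L, SLC40A1, CSF1R and CX3CR1 among them, the 95% interval lay within 1.5-fold either way.

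Of the 31 markers, 24 were highest in a WT library, and 20 of these in WT replicate 2 or 3. The lowest library was a MIDY library for 22 markers, and MIDY replicates 1, 3 and 4 were each lowest for 7. MIDY replicate 4 lay among the lowest 3 libraries for 21 markers, MIDY replicate 3 for 17 and WT replicate 4 for 15. The share of counts on the 18S ribosomal RNA gene RN18S was 8.22, 9.95, 6.96 and 7.82% in the MIDY libraries, against 8.71, 9.85, 11.4, 9.34 and 8.18% in the WT libraries. It was highest in WT replicate 3, MIDY replicate 2 and WT replicate 2 and lowest in MIDY replicates 3 and 4, and its part in the marker levels was not tested. WT replicate 2 combined the highest AIF1, ADGRE1, LAPTM5, LYZ and GPNMB with the lowest MARCO, CD5L and SLC11A1 of all 9 libraries. The coefficient of variation of a marker ranged from 2.55 to 73.6% in MIDY (median 18.5%) and from 4.21 to 75.7% in WT (median 21.4%), and between the lowest and the highest library the levels differed by 1.25-fold for CD163 and by 4.30-fold for MARCO, the widest ratio after the 92.9-fold of LYZ.

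**Figure D3:**
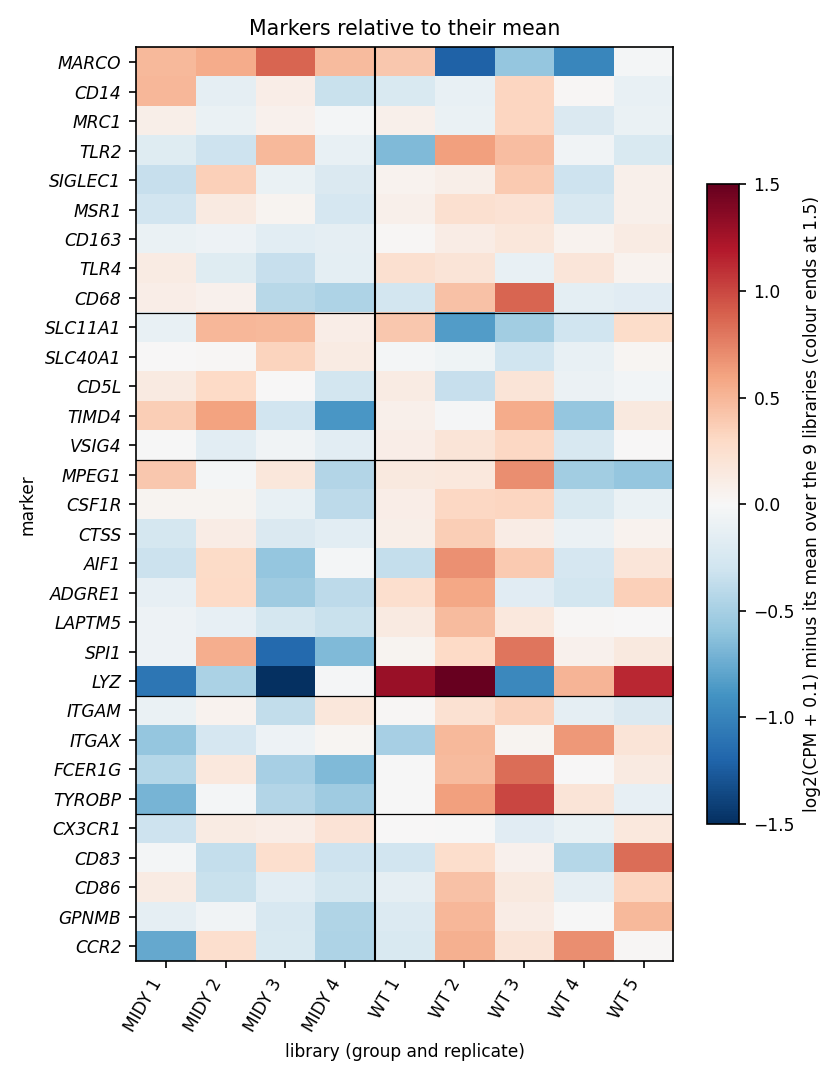
Level of the 31 tested markers in each library as log2(CPM + 0.1) minus its mean over the 9 libraries, with MIDY libraries left of the vertical line and roles divided by horizontal lines. WT replicates 2 and 3 hold the highest level of 20 markers, and MARCO runs opposite to most others in WT replicate 2.

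Summed over the 33 markers, the level overlapped between the groups, at 1762 to 2043 CPM in MIDY and 1780 to 2118 CPM in WT libraries. Of that sum, SLC40A1, CD5L, MRC1 and CD14 held 72.8 to 76.5% in MIDY and 66.3 to 73.1% in WT libraries. The other 29 markers summed to 491, 548, 477 and 449 CPM in the MIDY libraries, against 535, 636, 629, 479 and 552 CPM in the WT libraries, and these ranges overlapped. The 4 integrin and adaptor genes alone summed to 15.2 to 21.1 CPM in MIDY and 19.7 to 33.5 CPM in WT libraries. These shares are of counts, not corrected for transcript length, and the split between those 4 markers and the other 29 was made after its values were seen.

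Genes of other leukocytes and genes of MHC class II presentation had lower summed levels in MIDY liver. The class II list is not limited to leukocytes other than macrophages, and the part of these lists in the marker differences was not tested. The 17 measured T and NK cell genes summed to 49.3 to 54.2 CPM in MIDY and 62.3 to 93.4 CPM in WT libraries, without overlap, and all 15 tested had fitted values below 0, against 50.7% of all genes, with 6 lower at an unadjusted p below 0.05, against 8.0%. CD2, an adhesion receptor of T and NK cells, was the 1 called gene of the 15 tested, against 0.355% of all genes called lower (log2 fold change -0.90 ± 0.18 SE; edgeR adjusted p = 0.0377). That call was kept without WT replicate 1 or WT replicate 5 and lost when any of the other 7 libraries was left out (highest edgeR adjusted p = 0.109, without MIDY replicate 2), and it was lost with limma voom (adjusted p = 0.0543) and with scaling by total counts alone (edgeR adjusted p = 0.0536). The 9 B and plasma cell genes summed to 17.3 to 24.0 CPM in MIDY and 24.1 to 56.2 CPM in WT libraries. For 10 genes of MHC class II presentation the sums were 264 to 384 CPM in MIDY and 400 to 657 CPM in WT libraries. All 10 had fitted values below 0, against 50.7% of all genes, and 6 were lower at an unadjusted p below 0.05, against 8.0%. SLA-DQA1 and CD74 were the 2 of 10 called lower, against 0.355% of all genes (log2 fold changes -0.78 ± 0.15 and -0.74 ± 0.16 SE; edgeR adjusted p = 0.0273 and 0.0444). Their adjusted p reached 0.0845 and 0.128, both without MIDY replicate 3, over the fits that left out a library, and reads of near-identical SLA genes may be split between them.

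The sums of the other cell types overlapped between the groups, although sums rest on their most counted genes. The 12 dendritic cell genes summed to 57.2 to 65.8 CPM in MIDY and 63.2 to 93.0 CPM in WT libraries. All 9 tested had fitted values below 0, against 50.7% of all genes, with a median log2 fold change of -0.55. Lower at an unadjusted p below 0.05 in edgeR were 2 of 9, against 8.0% of all genes. The 11 monocyte and neutrophil genes were scarce, at 16.1 to 19.7 CPM in MIDY and 18.6 to 26.0 CPM in WT libraries. All 5 tested had fitted values below 0, against 50.7% of all genes. CXCR2, a chemokine receptor of neutrophils, averaged 2.22 ± 0.29 CPM in MIDY and 3.77 ± 0.49 CPM in WT liver (SD, n = 4 and 5; edgeR adjusted p = 0.0796). Its groups did not overlap, with MIDY below, as for 2.63% of all genes. The 7 mast cell and eosinophil genes summed to 15.5 to 23.1 CPM in MIDY and 14.3 to 30.3 CPM in WT libraries, with CPA3 at 0 counts in all 9. The 14 endothelial genes summed to 1166 to 1287 CPM in MIDY and 1053 to 1299 CPM in WT libraries. Of the 13 tested, 9 had fitted values below 0, against 50.7% of all genes. At an unadjusted p below 0.05 in edgeR 3 were lower and 1 higher, against 8.0% and 8.15% of all genes. The 13 stellate cell and fibroblast genes summed to 519 to 616 CPM in MIDY and 586 to 843 CPM in WT libraries. Lower at an unadjusted p below 0.05 in edgeR were 6 of 13, against 8.0% of all genes. COL1A2, a collagen chain, was the 1 gene of the 13 called lower, against 0.355% of all genes (log2 fold change -0.81 ± 0.17 SE; edgeR adjusted p = 0.0434). The COL1A2 call was kept without MIDY replicate 4 or WT replicate 1 and lost when any of the other 7 libraries was left out (highest edgeR adjusted p = 0.106, without MIDY replicate 2), and it was lost without WT replicates 1 and 2 together and with scaling by total counts alone (edgeR adjusted p = 0.0793 and 0.0965). The 8 bile duct genes summed to 38.4 to 56.0 CPM in MIDY and 47.9 to 100.5 CPM in WT libraries. The 6 red cell genes, HBB among them, varied from 163 to 540 CPM in MIDY and from 69.3 to 1506 CPM in WT libraries.

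**Figure D4:**
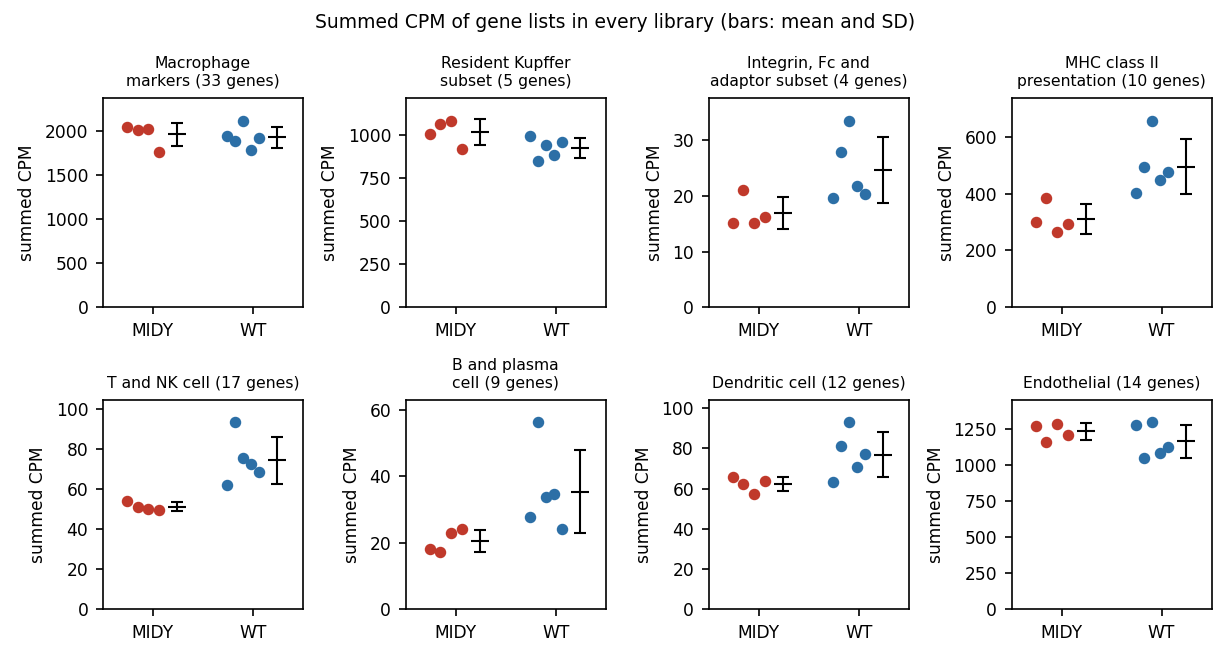
Summed CPM of the macrophage markers, of 2 subsets of them, of MHC class II presentation genes and of lists of other cell types in every library. MIDY is in red and WT in blue, with mean and SD as bars. The macrophage sum overlaps between the groups, at 1762 to 2043 CPM in MIDY and 1780 to 2118 CPM in WT libraries. The T and NK cell, B and plasma cell and MHC class II sums lie lower in every MIDY library than in any WT library.

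Receptors and signalling proteins of phagocytes were examined in a list of 15 Fc receptor and phagocyte signalling genes. Of 14 tested, 1 was called lower and 0 higher, and 5 had an unadjusted p below 0.05, all of them lower in MIDY, against 0.355% of all genes called lower and 8.0% lower at that p. RAC2, the GTPase of the phagocyte oxidase and of leukocyte migration, fell to 6.75 ± 0.9991 CPM in MIDY liver, against 10.8 ± 1.05 CPM in WT liver (SD, n = 4 and 5; log2 fold change -0.68 ± 0.14 SE; edgeR adjusted p = 0.0436). That call was kept without WT replicate 1 and lost when any of the other 8 libraries was left out, with an edgeR adjusted p of at most 0.119, reached without MIDY replicate 2. FCGR3A, the CD16 receptor that signals through FCER1G, averaged 15.8 ± 1.602 CPM in MIDY and 21.7 ± 2.41 CPM in WT liver (SD, n = 4 and 5; log2 fold change -0.46 ± 0.12 SE; edgeR adjusted p = 0.0832), with every MIDY library below every WT library, and DESeq2 called it lower (adjusted p = 0.0178). INPP5D and DOCK2, signalling proteins of leukocytes, had log2 fold changes of -0.29 ± 0.11 and -0.33 ± 0.13 (SE; edgeR adjusted p = 0.224 and 0.241). NCF1 and CYBA, subunits of the phagocyte NADPH oxidase, were not called, at -0.63 ± 0.33 and -0.32 ± 0.20 log2 (SE; edgeR adjusted p = 0.371 and 0.469).

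Of 21 other tested genes known from Kupffer cells, 0 were called by edgeR, against 1.17% of all genes, and 1 higher and 5 lower had an unadjusted p below 0.05, against 8.15% and 8.0% of all genes. FOLR2, a folate receptor of resident macrophages, averaged 293 ± 65.8 CPM in MIDY and 209 ± 17.9 CPM in WT liver (SD, n = 4 and 5; log2 fold change 0.49 ± 0.14 SE; edgeR adjusted p = 0.126), with no MIDY library as low as any WT library, as for MARCO. FOLR2 was called higher in 2 of 18 alternatives, by DESeq2 (adjusted p = 0.0461) and by edgeR with a surrogate variable, and its adjusted p reached 0.312. C1QC, a chain of complement C1q that macrophages make, had a log2 fold change of -0.40 ± 0.14 (SE; edgeR adjusted p = 0.179), and IRF8 and CSF2RB ones of -0.42 ± 0.16 and -0.34 ± 0.13 (SE; edgeR adjusted p = 0.237 for both). The list of the CSF1 receptor axis shares IRF8 and CSF2RB with that list and CSF1R and SPI1 with the marker set. Of its 10 tested genes, 0 were called, against 1.17% of all genes, and 4 were lower at an unadjusted p below 0.05, against 8.0%. Among these 4, TFEC and RUNX1 had log2 fold changes of -0.36 ± 0.12 and -0.31 ± 0.13 (SE; edgeR adjusted p = 0.178 and 0.286).

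Around the Toll-like receptors TLR2 and TLR4, 0 of 21 tested signalling genes were called by edgeR, against 1.17% of all genes. At an unadjusted p below 0.05, 2 were higher and 2 lower, 19.0% in all, against 16.1% of all genes. IRAK4, the first kinase of the pathway, averaged 13.7 ± 3.71 CPM in MIDY and 8.06 ± 1.65 CPM in WT liver (SD, n = 4 and 5; log2 fold change 0.76 ± 0.20 SE; edgeR adjusted p = 0.0842), and the groups overlapped. It was called higher by DESeq2 (adjusted p = 0.0184) and by edgeR without MIDY replicate 1 (adjusted p = 0.0449), and its edgeR adjusted p reached 0.235 without MIDY replicate 2. TNFAIP3, a brake on the pathway, and TLR9, for unmethylated DNA, had log2 fold changes of -0.59 ± 0.20 and -1.22 ± 0.46, and TLR1, the partner of TLR2, one of 0.41 ± 0.18 (SE; edgeR adjusted p = 0.181, 0.215 and 0.290). Around SLC40A1, 0 of 13 iron genes were called by edgeR, against 1.17% of all genes. Of the 13, 3, or 23.1%, had an unadjusted p below 0.05, against 16.1% of all genes. SLC25A37, the mitochondrial iron importer, and TFRC, the transferrin receptor, were lower (-0.62 ± 0.16 and -1.16 ± 0.30 log2 SE; edgeR adjusted p = 0.0888 and 0.101) and SLC11A2, another iron importer, higher (0.50 ± 0.18 log2 SE; edgeR adjusted p = 0.204). SLC25A37 and TFRC were each called lower in 3 of 18 alternatives, by DESeq2 (adjusted p = 0.0213 and 0.00218), by edgeR without WT replicate 1 (adjusted p = 0.0407 and 0.0398) and by edgeR without WT replicates 1 and 2 together, and their adjusted p reached 0.199 and 0.250. HAMP, the hepcidin that makes cells degrade ferroportin, averaged 377 ± 171 CPM in MIDY and 205 ± 132 CPM in WT liver (SD, n = 4 and 5; edgeR adjusted p = 0.406).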

How the data were processed

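RNA from 9 livers, 4 MIDY and 5 WT, was isolated with Trizol and made into libraries with the Encore Complete kit after ribosomal depletion, per the labels' protocols. STAR, HTSeq, DESeq2 and the build Sscrofa11.1 are named in the submitters' processing notes; the sources used here give no versions, annotation release or strand setting, so genes with overlapping models are uncertain. The authors' deposited table holds raw counts by gene symbol, 1 column for each library, and every entry names a gene.

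Counts were filtered with filterByExpr, leaving 14100 genes that hold 99.9% of all counts, scaled by TMM and tested with edgeR 4.0.16 in R 4.3.3 (robust quasi-likelihood F test, two-sided, Benjamini-Hochberg over all genes tested, called below 0.05). A standard error is the log2 fold change over the root of its F statistic, and 95% intervals use the test's degrees of freedom. The common biological coefficient of variation was 21.5%. Alternatives used DESeq2 1.42.0, limma 3.58.1 and sva 3.50.0. The fits were tested on simulated data. Positions come from the RefSeq gene table of Sscrofa11.1. The markers and lists were chosen with earlier results of these data known, so no list was tested as a set. All measured markers are described. Of the other lists, at most 4 tested genes with the smallest p and any called gene are given with a test. Replicates are numbered in accession order. Sequences of the markers were not used here.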

Additional observations from a re-analysis of the deposited data

Results flagged for a closer look

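In 62 checks of the 31 tested markers, 1 for each marker and group, 2 single libraries stood apart from the rest of their group by Dixon's test, where chance gives about 1 in 20. SPI1 was 5.25 CPM in WT replicate 3, against 3.06 to 3.65 CPM in the other 4 WT libraries. LAPTM5 was 46.2 CPM in WT replicate 2, against 33.4 to 37.1 CPM in the other 4 WT libraries. Without WT replicate 3 the log2 fold change of SPI1 was -0.37 ± 0.33 (SE), and without WT replicate 2 that of LAPTM5 was -0.28 ± 0.11 (SE).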

How the results depend on the processing

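Of 558 marker values recomputed under 18 alternatives, 528 kept the direction and the side of the threshold, 27 changed sign and 3 newly passed the threshold, which were MARCO and LYZ with DESeq2 and MARCO without WT replicate 1. DESeq2 thus called 1 marker higher and 1 lower, and 355 genes higher and 284 lower, with its adjusted p missing for 278 genes. Genes called lower numbered 82 with limma voom and 86 with 1 surrogate variable, against 50. Without WT replicates 1 and 2 together, 42 genes were called higher and 24 lower. Over the fits that left out a library, 34 to 152 genes were called higher and 4 to 107 lower, with both lowest counts without MIDY replicate 2 and both highest without WT replicate 1. Of the markers, 0 to 1 were called higher and 0 lower, and 6 to 11 had an unadjusted p below 0.05, the 11 without MIDY replicate 2. The cause of these shifts was not tested.

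Values of 7 markers changed sign. MPEG1 was -0.000799 log2 with RLE factors, -0.00541 with the 10 most abundant genes taken out, -0.000318 with the stricter filter and -0.00154 with DESeq2. MRC1 was 0.0288 with total counts alone, 0.00891 with no filter, 0.0626 with limma voom and 0.0267 with a surrogate variable. TLR2 was 0.0777 with limma voom, and CD14 -0.0289 without WT replicates 1 and 2. Over the fits that left out a library, log2 fold changes ran from -0.14 to 0.21 for MPEG1, -0.0532 to 0.0902 for MRC1, -0.31 to 0.0726 for TLR2, -0.10 to 0.18 for CD14, -0.26 to 0.19 for TIMD4, -0.0187 to 0.16 for CD5L and -0.00745 to 0.16 for CX3CR1. No paired analysis was possible because the labels give no replicate numbers that MIDY and WT libraries share. Depth limits CLEC7A, TREM2 and the 6 tested markers under 4 CPM in WT liver, LYZ among them, and no transcript lengths were used.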

Other observations

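Genes of lipid-associated and scar-associated macrophages other than GPNMB and TREM2 had a median log2 fold change of -0.35 over 12 tested. Of these, 0 were called by edgeR, against 1.17% of all genes, and 4 had an unadjusted p below 0.05, all lower in MIDY, against 8.0%. CD9, a tetraspanin, averaged 7.46 ± 0.20 CPM in MIDY and 10.3 ± 1.39 CPM in WT liver (SD, n = 4 and 5; edgeR adjusted p = 0.119), and DESeq2 called it lower (adjusted p = 0.0458). The cholesterol exporters ABCG1 and ABCA1 had log2 fold changes of -0.60 ± 0.19 and -0.47 ± 0.21, and SPP1, osteopontin, which bile duct cells also make, one of -1.50 ± 0.51 (SE; edgeR adjusted p = 0.153, 0.302 and 0.204). Of 17 lysosomal genes, 0 were called by edgeR and 0 had an unadjusted p below 0.05, against 1.17% and 16.1% of all genes. Their median log2 fold change was 0.02.

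Of 22 chemokine and chemokine receptor genes, 19 were tested and 0 were called by edgeR, against 1.17% of all genes. At an unadjusted p below 0.05, 7 were lower in MIDY, against 8.0% of all genes. CXCL16, a chemokine and scavenger receptor of macrophages, averaged 86.1 ± 8.81 CPM in MIDY and 115 ± 6.59 CPM in WT liver (SD, n = 4 and 5; edgeR adjusted p = 0.0670), and DESeq2 and limma voom called it lower, the first at an adjusted p of 0.00353. CCL2, the ligand of CCR2, was scarce, at 0.305 ± 0.130 CPM in MIDY and 0.725 ± 0.059 CPM in WT liver (SD, n = 4 and 5; edgeR adjusted p = 0.134), and CCL5 and CCL19 had log2 fold changes of -0.73 ± 0.26 and -0.66 ± 0.24 (SE; edgeR adjusted p = 0.204 and 0.206). Of 12 cytokine and inflammasome genes only 5 were tested, since TNF, IL1A, IL1B, IL6, IL10, IL12B and IL27 lay below the count filter. NLRP3, IL18, TGFB1 and CASP1 had log2 fold changes of -0.65 ± 0.20, -0.55 ± 0.22, -0.29 ± 0.12 and -0.51 ± 0.30 (SE; edgeR adjusted p from 0.141 to 0.438), and NLRP3 was called lower by edgeR without WT replicate 1 (adjusted p = 0.0471).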
